A study of Mus musculus with 77 samples.

Results

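The mRNAs described here are the 150 mouse liver transcripts on which the largest part of the ribosome footprints lay in the 5′ untranslated region (5′ UTR) relative to the coding sequence (CDS). Ribosome-protected fragments (RPF) were summed over the 12 wild-type livers of the study, genes with at least 500 CDS footprints were kept, and the ratio of 5′ UTR to CDS footprints was ranked. Of 25266 genes in the count tables, 7476 reached this minimum and 7335 were ranked. Ftl1, Fth1, Atf4, Atf5, Ddit3, Ppp1r15a, Ppp1r15b, Azin1, Amd1 and symbols starting with Rpl, Rps, Mup, Eif or mt- had been left out of the ranking by name. The wild-type footprint ratio chose the members, so its level in these livers is a description and was not tested. The ratio is one of read counts and not of reads per base.

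Livers were from adult male mice on a C57BL/6J background. The groups were Aco1-/- mice, which lack functional iron regulatory protein IRP1 in the whole body (allele Aco1 tm1.1Mwh), Ireb2-/- mice, which lack IRP2 (allele Ireb2 tm1.2Mwh), and the matched wild-type controls of each line, Aco1+/+ and Ireb2+/+. Each was collected at ZT5, in the light phase, and at ZT12, when the lights go off, with 3 mice per group and 1 RPF and 1 total RNA library per liver, which makes 24 livers and 48 libraries. Transcription of Aco1 continues in Aco1-/- mice.

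A 5′ UTR is scanned by the small ribosomal subunit on its way from the cap to the start codon of the main reading frame. Footprints found there are known mostly from upstream open reading frames (uORFs), short frames that are translated before the main one and that often lower, and under stress sometimes permit, translation of the CDS. In liver, transcripts with such frames include regulators of the stress response, of polyamine metabolism and of the circadian clock.

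CDS totals ranged from 2448915 to 13439600 footprints per RPF library and from 852293 to 3993492 reads per RNA library. The 5′ UTR column took 1.20 to 3.19% of the counts of an RPF library and 4.09 to 6.28% of those of an RNA library. The 6 hepatocyte markers examined were detected in every library and together made up 117300 to 174000 CPM (counts scaled to a common library size) of RNA, against 176 to 306 for Kupffer cell, 372 to 524 for endothelial and 401 to 661 CPM for stellate cell markers, and 1.24 to 17.2 for cholangiocyte markers. The 3 erythroid markers ranged from 1.53 to 104.2 CPM of RNA and from 0.151 to 85.8 CPM of RPF, and both highest values were in Aco1-/- ZT12 replicate 2. The Ireb2+/+ ZT5 replicate 3 liver stood apart, with 7115 CPM of RNA from the pancreatic genes Cpa1, Cela1, Prss2 and Pnlip (median over livers 12.5). Without it, 16 of the 150 fell out of the top 150, all because they no longer reached the minimum. Footprints on Aco1 were lower in every Aco1-/- liver (63.3 to 101.8 CPM) than in any Aco1+/+ liver (289.7 to 498.8), and those on Ireb2 were lower in every Ireb2-/- liver (25.8 to 34.2 CPM) than in any Ireb2+/+ liver (54.2 to 71.3). In whole liver, fewer cells of a type and less RNA per cell cannot be told apart.

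The first bases of 8 members show how unlike these leaders are at the start of the transcript. The first 5 lines are members that have an ATG, given in capitals, close to an annotated start of the mRNA. The last 3 are members among the 4 with the highest ratio that have none in the first 50 bases. All are RefSeq sequences of build GRCm38.p6, written 5′ to 3′ on the transcribed strand, and all begin at the first base of a transcript except those of Mief1 (bases 15 to 44) and Ppm1b (bases 12 to 41). Ppm1b has more than 1 annotated start, and that at chr17:84965025 has no ATG in its first 30 bases.
Rnf10, chr5:115272866-115272895 (-): gATGctgtttggcgactcgtcgccattccc
Stk16, chr1:75210829-75210858 (+): gATGatgtcatccgggcttccggtccctgg
Megf9, chr4:70534899-70534928 (-): agagggaggtggcgATGgtgctcttggtgg
Mief1, chr15:80234094-80234123 (+): gaagtagaggggccATGttgatgggtgacc
Ppm1b, chr17:84956752-84956781 (+): ccacgcttagcaaaATGcaggtgctcttta
Ap2m1, chr16:20535480-20535509 (+): ggcggggtggggcgggagcactgcagtgaa
Cox7c, chr13:86046766-86046795 (-): atcttccctttcggtcttcgcgctctgccg
Noct, chr3:51224447-51224476 (+): aggactgacgctcaacgccctgcagtccgt
An annotated start was matched for 118 of the 150 members. An ATG on the transcribed strand within the first 50 bases was present in 42 of these 118 (35.6%) and in 2195 of 5746 other ranked genes (38.2%), so this feature was about as common in both. The median GC content of the 50 bases was 62.5% in the members and 66.0% in the other genes. Among the members later called higher in RPF than in RNA it was 18 of 50 (36.0%), and among those called lower 8 of 32. A match of these letters is not a translated frame, and the window is shorter than most 5′ UTRs.

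The wild-type ratio of the 150 mRNAs ran from 0.370 to 3.52 with a median of 0.516, while the other ranked genes had a median of 0.0173 and reached at most 0.366. On 13 members the 5′ UTR held more footprints than the CDS, on 68 the ratio lay between 0.5 and 1, and on 69 it was 0.5 or less. The last members inside the limit were Ubn1 (0.377), Cggbp1 (0.374) and BC031181 (0.370), and the first genes outside were Tnfrsf1a (0.366), Pxdc1 (0.366) and B3galt1 (0.365), so the limit falls in a continuous range. The members carried 6.78% of the 5′ UTR footprints of all ranked genes and 0.207% of their CDS footprints. They were of moderate coverage, with a median of 913 wild-type CDS footprints (504 to 6554) against 2100 for the other genes.

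The 12 knockout livers were not used to choose the members. The median of the members' ratio over these livers together was 0.510 (0.287 to 3.63), against 0.0189 for the other ranked genes. Ranked by these livers among the same 7335 genes, all but 19 of the 150 were again in the top 150, and every member lay within the first 244. Footprints downstream of the CDS were scarce: the ratio of 3′ UTR to CDS footprints had a median of 0.00724 in the members and 0.00262 in the other genes, and all members but 1 had more footprints in the 5′ than in the 3′ UTR.

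The gene with the highest ratio was Ap2m1, the medium subunit of the AP-2 adaptor of clathrin-coated vesicles, with 1967 wild-type footprints in the 5′ UTR and 559 in the CDS (ratio 3.52). Its ratio was above 1 in all 24 livers, with 2.89, 4.72 and 4.67 at ZT12 and 5.13, 3.85 and 3.58 at ZT5 in Aco1+/+, and 6.35, 4.29 and 2.77 at ZT12 and 2.40, 2.50 and 1.84 at ZT5 in Ireb2+/+. In Aco1-/- it was 1.93, 3.38 and 2.84 at ZT12 and 4.56, 5.04 and 2.66 at ZT5, and in Ireb2-/- 3.64, 4.70 and 5.32 at ZT12 and 5.38, 1.83 and 5.48 at ZT5. The lowest group was Ireb2+/+ at ZT5, which lay below Ireb2+/+ at ZT12 without overlap, while the knockout of each line overlapped its wild type at ZT5. Next came Cox7c, a small subunit of cytochrome c oxidase (wild-type ratio 2.88, knockout 2.16), and Cflar, which encodes the caspase-8 regulator c-FLIP (2.04 and 1.97). Noct encodes nocturnin, a rhythmic member of the deadenylase family (1.69 and 2.38).

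Abhd17a (1.66 and 1.45) and Zdhhc6 (1.65 and 1.90) encode enzymes of the palmitoylation cycle, a depalmitoylase and a palmitoyltransferase. Ppm1b is a protein phosphatase (1.39 and 1.39), Ciao2a a factor of cytosolic iron-sulphur protein assembly (1.35 and 1.00), Prelid1 a mitochondrial lipid transfer protein (1.30 and 1.29) and Stk16 a protein kinase (1.19 and 0.978). For each of these 10 genes the knockout ratio thus stayed far above the median of the other genes.

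Some genes that are textbook cases of upstream translation were in the set and others were not. Of 14 genes listed for translated uORFs, 7 reached the minimum and 2 were members. Sat1, the acetyltransferase that starts polyamine breakdown, was at place 25 with a ratio of 0.842 in wild-type and 0.977 in knockout livers. Mief1, whose leader encodes a small mitochondrial protein besides the fission factor of the CDS, was at place 59 (0.597 and 0.461). Others of this list had too few CDS footprints for the rule: Slc35a4 had 320 footprints in the 5′ UTR and 7 in the CDS, and Ucp2 had a ratio of 2.68 with 315 CDS footprints. Of the 9 genes left out by their full names, 6 reached the minimum. Atf5 (2.71), Atf4 (0.993), Azin1 (0.726) and Ppp1r15b (0.642) had ratios above the limit of the ranking, and Ftl1 (0.226) and Fth1 (0.0337) below it. Of 19 clock genes, 15 reached the minimum and Dbp, a clock-controlled transcription factor, was the only member (ratio 0.392), with Clock at place 170 (0.349) and Nr1d1 at place 266 (0.265). None of the 33 liver transcription factors of the third list that reached the minimum was a member. Klf9 was the highest of them at place 249 (0.278), and Cebpa stood at place 2578 (0.0373).

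By group, the ratio summed over 3 livers had a median over the 150 mRNAs of 0.629 (0.331 to 6.52) in Aco1+/+ at ZT5 and 0.564 (0.281 to 4.10) at ZT12. In Aco1-/- it was 0.620 (0.364 to 5.09) at ZT5 and 0.397 (0.0556 to 2.59) at ZT12. In Ireb2+/+ it was 0.461 (0.264 to 6.81) at ZT5 and 0.488 (0.192 to 3.74) at ZT12, and in Ireb2-/- 0.545 (0.246 to 15.8) and 0.554 (0.296 to 4.67). The Aco1-/- group at ZT12 was the lowest of the 8, and its individual livers had medians of 0.378, 0.471 and 0.347. The Aco1-/- livers at ZT5 had 0.659, 0.599 and 0.585 and the Aco1+/+ livers at ZT12 0.539, 0.566 and 0.588, so neither overlapped with it. The Aco1+/+ ratios are among those that chose the members, which favours lower values in the knockout. The other ranked genes did not overlap at ZT12 either. Their medians were 0.0107, 0.0149 and 0.0109 in Aco1-/- and 0.0157, 0.0179 and 0.0198 in Aco1+/+ livers. The Aco1-/- ZT12 livers had the 5′ UTR column at 1.48 to 1.89% of all RPF counts, against 2.20 to 3.19% in Aco1-/- at ZT5 and 1.92 to 2.47% in Aco1+/+ at ZT12. The part of this difference in library composition in the members' ratio was not tested on its own.

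**Figure D1:**
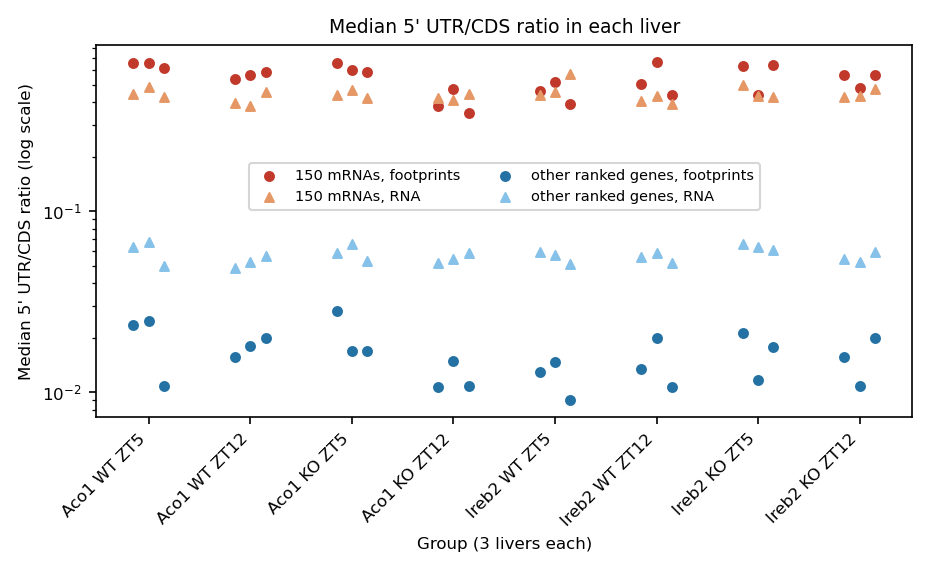
Median ratio of 5′ UTR to CDS reads in each liver (vertical, log scale) by group, for the 150 mRNAs and the other ranked genes, in footprints (circles) and total RNA (triangles). Each symbol is 1 liver. The 3 Aco1-/- ZT12 livers have the footprint medians 0.378, 0.471 and 0.347, below the livers of the same genotype at ZT5 and below the Aco1+/+ livers at ZT12. The Aco1+/+ footprint ratios are among those that chose the 150 mRNAs.

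The next comparison asked whether footprints in the 5′ UTR were more, or less, frequent than the RNA reads of the same region would give. In total RNA of the knockout livers the 5′ UTR to CDS ratio had a median of 0.423 in the members (0.0392 to 52.3) and 0.0639 in the other ranked genes, so the 150 mRNAs were also rich in 5′ UTR reads at the level of RNA. Across all 3411 genes tested the ratio was mostly lower in RPF than in RNA, with a median log2 difference of −1.11. The members had a median of 0.30. The RPF ratio was higher than the RNA ratio in 69 of 150 members (13.5% of all genes tested) and lower in 38 (63.7% of all genes tested), while 43 passed the test in neither direction (edgeR quasi-likelihood test with Benjamini-Hochberg adjustment, 12 knockout livers). In 30 members it was higher in every one of the 12 livers (4.28% of all genes tested) and in 18 lower in every one (45.5%). The rule took genes with a high footprint ratio, so a shift of the set to the higher side is built in to a degree that was not tested, and the values of the single members carry the description. With the Aco1-/- livers alone 45 members were called higher and 27 lower, and with the Ireb2-/- livers alone 65 and 33. The test did not pair the RPF and RNA library of a liver.

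**Figure D2:**
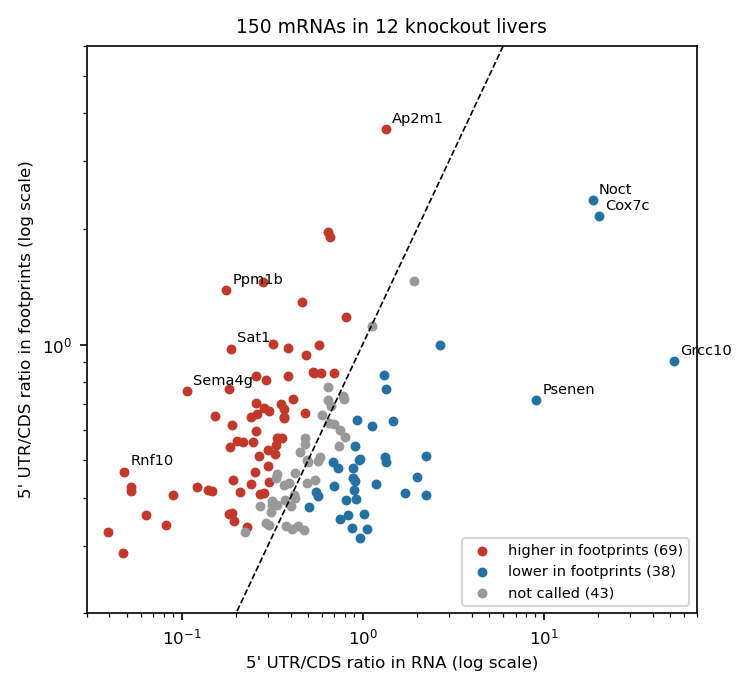
Ratio of 5′ UTR to CDS reads in total RNA (horizontal, log scale) and in footprints (vertical, log scale) of the 12 knockout livers for each of the 150 mRNAs, coloured by the outcome of the test. The 69 mRNAs called higher in RPF lie above the line of equal ratios and the 38 called lower lie below it, with Grcc10 farthest to the right at an RNA ratio of 52.3.

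The largest excess of footprints over RNA in the 5′ UTR was on Rnf10, an E3 ubiquitin ligase, whose printed leader, like that of Stk16, has an ATG at its second base. Its RPF ratio in knockout livers was 0.468 and its RNA ratio 0.0484, a log2 difference of 3.35 ± 0.23 (SE), in the same direction in 12 of 12 livers (adjusted p = 2.3e-17). In Aco1-/- livers the RPF ratio was 0.812, 0.570 and 0.527 at ZT12 and 0.391, 0.234 and 0.414 at ZT5, and the RNA ratio was 0.0387, 0.0441 and 0.123 and then 0.0427, 0.0334 and 0.0214. In Ireb2-/- livers the RPF ratio was 0.386, 0.432 and 0.525 at ZT12 and 0.513, 0.352 and 0.290 at ZT5, with an RNA ratio between 0.0325 and 0.0487 in these 6 livers. In the knockout livers the lowest RPF value of Rnf10 was thus above its highest RNA value.

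Megf9, a membrane protein with EGF-like domains, followed with a log2 difference of 3.08 ± 0.45, then Pias2, a SUMO ligase (3.05 ± 0.46), Aggf1, an angiogenic factor (3.03 ± 0.32), and Ppm1b (2.90 ± 0.21). The difference had the same sign in 12 of 12 livers for Aggf1 and Ppm1b and in 11 of 12 for Megf9 and Pias2. Among the members with the highest wild-type ratio, Abhd17a (2.33 ± 0.24), Cflar (1.66 ± 0.20), Ciao2a (1.66 ± 0.27), Prelid1 (1.52 ± 0.17), Zdhhc6 (1.47 ± 0.20), Ap2m1 (1.44 ± 0.27) and Stk16 (1.27 ± 0.21) were all called higher in RPF. Sat1 was called higher too, by 2.35 ± 0.24 in 12 of 12 livers (adjusted p = 1.1e-11), with an RPF ratio of 0.977 and an RNA ratio of 0.187. For Mief1 the difference of 0.44 ± 0.34 did not pass (adjusted p = 0.24), and Dbp was called lower (−0.40 ± 0.17, adjusted p = 0.032).

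On the other side stood members whose 5′ UTR was read far more often in RNA than in footprints. Grcc10, a small gene of the gene-rich cluster on chromosome 6, had an RPF ratio of 0.906 and an RNA ratio of 52.3 in knockout livers, a log2 difference of −5.63 ± 0.29. Its CDS had only 5.59 to 15.1 CPM of RNA in the knockout livers, so the RNA ratio rests on few CDS reads. Psenen, a subunit of gamma-secretase, had 0.719 and 9.12 (−3.73 ± 0.31), and for Cox7c the values were 2.16 and 20.2 (−3.11 ± 0.26). Noct (−2.74 ± 0.65) and Cox16, an assembly factor of cytochrome c oxidase (−2.49 ± 0.24), completed the lowest 5. In these 5 genes the RPF ratio was the lower one in all 12 livers. In Aco1-/- livers at ZT5 the mean log2 CPM of CDS RNA was 3.66 for Grcc10. It was lower for Cox7c (2.62), Cox16 (2.95), Noct (2.93) and Psenen (−0.01), so few CDS reads limit their RNA ratios too. Cox7c, Ptma, Naca, Set and Hnrnpf have near-identical copies in the genome, and Gsta2 a close paralogue, so that the split of their reads between regions is uncertain. An annotated neighbour overlaps Cox7c, Psenen and Cox16 as well, while Grcc10, Noct and Rnf10 overlap no other gene of the RefSeq table; counting by strand is not given in the sources used here.

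The members were then grouped by what their proteins do, a grouping made after their values were known and so given as a description, to be read against the 69 of 150 members, and 13.5% of all genes tested, called higher and the 38 of 150, and 63.7%, called lower. Of 12 signalling genes, 9 were called higher in RPF and none lower, with a median log2 difference of 1.07. They include the kinases Map3k11 (2.14 ± 0.20) and Dyrk2 (2.15 ± 0.27) and the adaptor Tab2 (2.58 ± 0.34), while Stk11, the kinase LKB1, did not pass (0.18 ± 0.21, adjusted p = 0.43). Of 8 genes of ubiquitin conjugation, 5 were called higher and 1, the conjugating enzyme Ube2f, lower (−0.79 ± 0.27). Of 6 genes of glycan synthesis, 5 were called higher, among them the heparan sulphate enzymes Extl3 (1.14 ± 0.23) and Ndst1 (1.48 ± 0.20), and the sialyltransferase St3gal1 was called lower (−0.92 ± 0.16). A group of 16 mitochondrial genes, which does not hold every mitochondrial member, was divided, with 4 called higher and 7 lower. Among those lower were Cox14, an assembly factor of cytochrome c oxidase (−1.50 ± 0.20), Higd1a (−1.43 ± 0.24) and Timm9, a chaperone of protein import (−1.03 ± 0.26), whereas the calcium-dependent carrier Slc25a23 was higher (2.51 ± 0.23).

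Among the 150 were 4 genes with a role in iron handling. Bmp2 is a ligand and Hfe2, also named hemojuvelin, a co-receptor of the signal that induces hepcidin. Scara5 is a ferritin receptor, and Ciao2a acts in iron-sulphur protein assembly. All 4 were called higher in RPF than in RNA (69 of 150 members and 13.5% of all genes tested were), Hfe2 by 1.47 ± 0.20, Bmp2 by 0.61 ± 0.22 and Scara5 by 0.78 ± 0.36. The Hfe2 footprint ratio was 0.691, 0.911 and 0.527 in Aco1+/+ and 0.458, 0.506 and 0.492 in Aco1-/- livers at ZT12, and 0.820, 1.10 and 1.00 against 0.747, 1.26 and 0.594 at ZT5. The lowest values were those of Aco1-/- at ZT12, which lay below Aco1-/- at ZT5 without overlap, as did those of 75 of the 150 members and 33.4% of all genes tested, and Hfe2 passed no test of the ratio between groups.

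Translation efficiency (TE) of the CDS, the log2 ratio of RPF to RNA in CPM after upper-quartile scaling, was low in most of the members. In the knockout livers its median over the 150 mRNAs was −0.76, against 0.26 for the 7326 other genes at the minimum. Of the 150, 118 were below the median of the other genes, and 60 were in the lowest 10% and 9 in the highest 10% of all 7476 genes ranked by TE. The denominator of the ratio that chose the members is the CDS footprint count, so a low TE is in part favoured by the rule, and this difference was not tested. Over the 8 groups the median lay close together, from −0.79 ± 0.13 in Aco1-/- at ZT5 to −0.67 ± 0.13 in Ireb2-/- at ZT12 (SD of 3 livers), with −0.77 ± 0.05 in Aco1-/- at ZT12. The median of Aco1+/+ was −0.79 ± 0.08 at ZT5 and −0.78 ± 0.03 at ZT12, that of Ireb2+/+ −0.69 ± 0.01 and −0.73 ± 0.07, and that of Ireb2-/- at ZT5 −0.72 ± 0.18. The difference between any of these groups was smaller than the SD of the 3 livers in the widest of them.

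**Figure D3:**
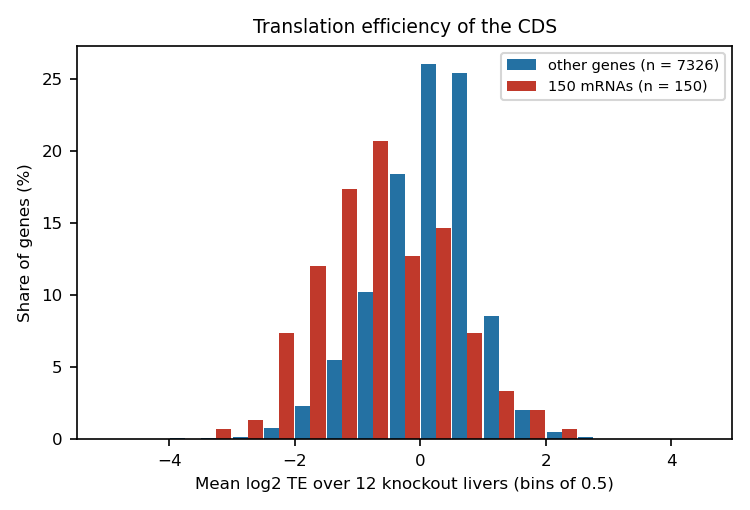
Distribution of the mean log2 TE over the 12 knockout livers in bins of 0.5, as the share of genes in percent, for the 150 mRNAs and for the 7326 other genes with at least 500 wild-type CDS footprints. The members are shifted to lower values, with a median of −0.76 against 0.26, and both distributions overlap.

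The lowest TE was that of Rnf10, at −3.22 ± 0.36 (SD, n = 12), with 144.1 to 189.9 CPM of RNA in the knockout livers. It was followed by Slc25a23 (−2.88 ± 0.28), Abhd17a (−2.59 ± 0.29), Aggf1 (−2.50 ± 0.43) and Mbtps1, the site-1 protease that activates SREBP (−2.44 ± 0.27). Each of these 5 had also been called higher in RPF than in RNA. At the other end were Psenen (2.10 ± 1.23), Ptges3, the co-chaperone p23 (1.92 ± 0.54), Hsbp1, which binds heat shock factor (1.82 ± 0.32), the prefoldin subunit Pfdn6 (1.54 ± 0.36) and the mitochondrial ribosomal protein Mrps21 (1.48 ± 0.37). None of these 5 had been called higher in RPF. Psenen had the widest spread of them, and its CDS RNA was low, with a mean log2 CPM of −0.01 in Aco1-/- livers at ZT5.

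TE was also set beside the call of each member. The 69 called higher in RPF had a median TE of −1.46, and 68 of them were below the median of the other genes. The 38 called lower had a median of 0.36 (16 below), and the 43 that did not pass had −0.53 (34 below). Across the 150 mRNAs the log2 difference between the RPF and RNA ratios and the TE had a Spearman coefficient of −0.81, while it was −0.24 for the RPF ratio alone and 0.66 for the RNA ratio alone. Both quantities hold the same CDS counts of the same libraries, which by itself moves the first coefficient to the negative side, and genes are not independent replicates. By role, the median TE was −1.44 for the signalling, −1.60 for the glycan, −1.23 for the ubiquitin, −0.85 for the iron and −0.12 for the mitochondrial genes of these groups. Stk11 had a TE of −1.92 ± 0.41. Genes named for their role and not for a rank were chosen after their values were seen.

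The ratio was next compared between times within the knockouts, which the rule had not used. From ZT5 to ZT12 in Aco1-/- livers it fell in 47 of 150 members (18.9% of the 3137 genes tested fell) and rose in 0 (0.988%). The members' median log2 change was −0.77 and that of all genes tested −0.62, so genes outside the set moved the same way. In 75 members the 3 ZT12 livers were all below the 3 ZT5 livers (33.4% of all genes tested). When 5′ UTR counts were scaled by their own upper quartile, the medians became −0.26 and −0.12, with 14 members called, 9 of them lower and 5 higher. Without Aco1-/- ZT5 replicate 1 the count was 14, and without Aco1-/- ZT12 replicate 1 it was 24. Without Aco1-/- ZT12 replicate 2, the liver with the most erythroid marker RNA, it was 46.

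Nat8, an N-acetyltransferase of liver and kidney, had one of the largest falls. Its ratio was 0.480, 0.393 and 0.423 in Aco1-/- livers at ZT5 and 0.0474, 0.0763 and 0.0899 at ZT12, a log2 change of −2.75 ± 0.39 (adjusted p = 6.1e-05). Pias2 went from 0.446, 0.741 and 0.414 to 0.0595, 0.0182 and 0.0779 (−3.19 ± 0.52, adjusted p = 0.00024), and the ZT12 values rest on only 5, 1 and 6 footprints in the 5′ UTR. In Cldn12, a claudin of tight junctions, the ratio changed from 0.553, 0.438 and 0.368 to 0.0959, 0.152 and 0.167 (−1.75, adjusted p = 0.0010). The groups did not overlap in any of these genes. Tlcd1, which acts in membrane lipid composition, fell by 2.18 ± 0.39 on the log2 scale (adjusted p = 0.00054). Mief1 was among the 47 as well, with 0.643, 0.483 and 1.00 at ZT5 and 0.111, 0.255 and 0.170 at ZT12 (−1.94 ± 0.48, adjusted p = 0.0073). Calls of Nat8, Pias2, Cldn12 and Tlcd1 were kept whichever single liver was left out.

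**Figure D4:**
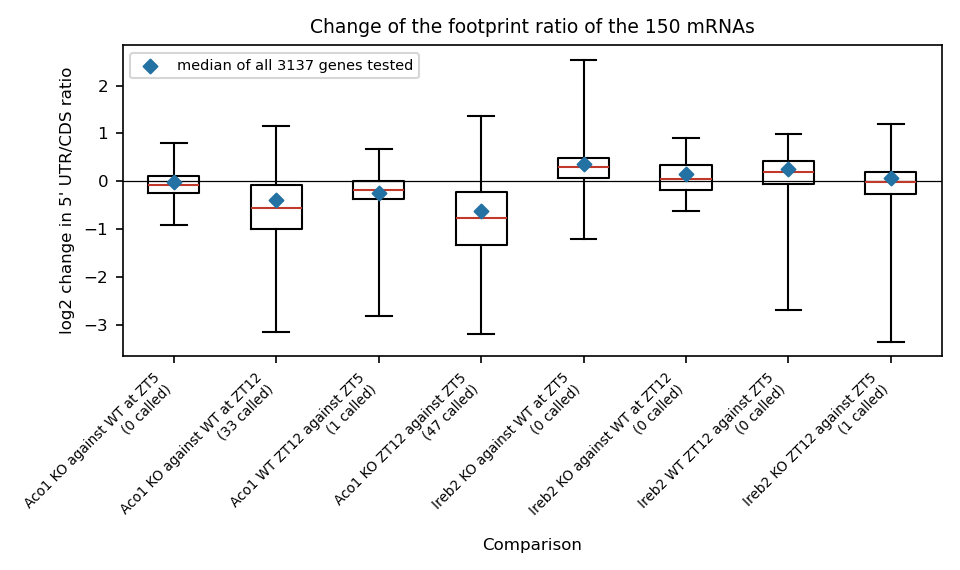
Log2 change of the footprint ratio of the 150 mRNAs (vertical) in each of the 8 comparisons between groups; boxes span the quartiles with the median as a red line, whiskers reach the lowest and highest member, and diamonds are the median of all 3137 genes tested. Both medians are lowest in Aco1-/- at ZT12 against ZT5 (−0.77 and −0.62), next in Aco1-/- against Aco1+/+ at ZT12 (−0.56 and −0.39).

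Against Aco1+/+ at ZT12, the ratio in Aco1-/- livers was called lower in 32 members (10.4% of all genes tested) and higher in 1, Mrfap1 (1.43%). The wild-type livers of this contrast had chosen the members, which favours lower values in the knockout, so these counts are given beside the background and nothing is read from them. The median log2 difference was −0.56 for the members and −0.39 for all genes. In total RNA, which the rule did not use, the 5′ UTR to CDS ratio of Nat8 at ZT12 was 0.515, 0.333 and 0.633 in Aco1+/+ and 0.186, 0.270 and 0.125 in Aco1-/- livers, without overlap. For Cldn12 the RNA ratio overlapped, with 0.286, 0.500 and 0.507 in Aco1+/+ and 0.455, 0.481 and 0.351 in Aco1-/- livers. The count was 5 without Aco1-/- ZT12 replicate 1, 12 without Aco1+/+ ZT12 replicate 2 and 21 without Aco1+/+ ZT12 replicate 3.

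For Aco1-/- against Aco1+/+ at ZT5, for Ireb2-/- against Ireb2+/+ at ZT5 and at ZT12, and for ZT12 against ZT5 in Ireb2+/+, 0 members were called in the ratio by edgeR (0% of all genes tested in each). At an unadjusted p under 0.05 there were 1, 10, 1 and 12 members (0.893, 10.5, 2.81 and 8.22% of all genes tested). At ZT5 the Ireb2-/- ratio had a median difference of 0.29 in the members and 0.36 in all genes. A comparison that passed nothing does not show equal ratios. An interaction term gave the change by time in Aco1-/- minus that in Aco1+/+, and it subtracts wild-type ratios that entered the rule, so its values are a description. It was −2.64 ± 0.52 on the log2 scale for Nat8 and −3.31 ± 0.68 for Pias2, the 2 members called (0.414% of all genes tested were called in this direction). Each of these calls was lost in 5 of the 12 fits that left out 1 liver, and that of Pias2 also without the filter on low counts. The corresponding interaction of the ratio in the Ireb2 line was called in 0 members and 0% of all genes (2 members and 3.16% of all genes at an unadjusted p under 0.05). That of TE was called in 0 members in the Aco1 line (0.0187% of all genes called higher and 0.00935% lower, with 11 members and 4.75% of all genes at an unadjusted p under 0.05) and in 0 in the Ireb2 line (0% of all genes, with 9 members and 5.27% at an unadjusted p under 0.05).

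**Figure D5:**
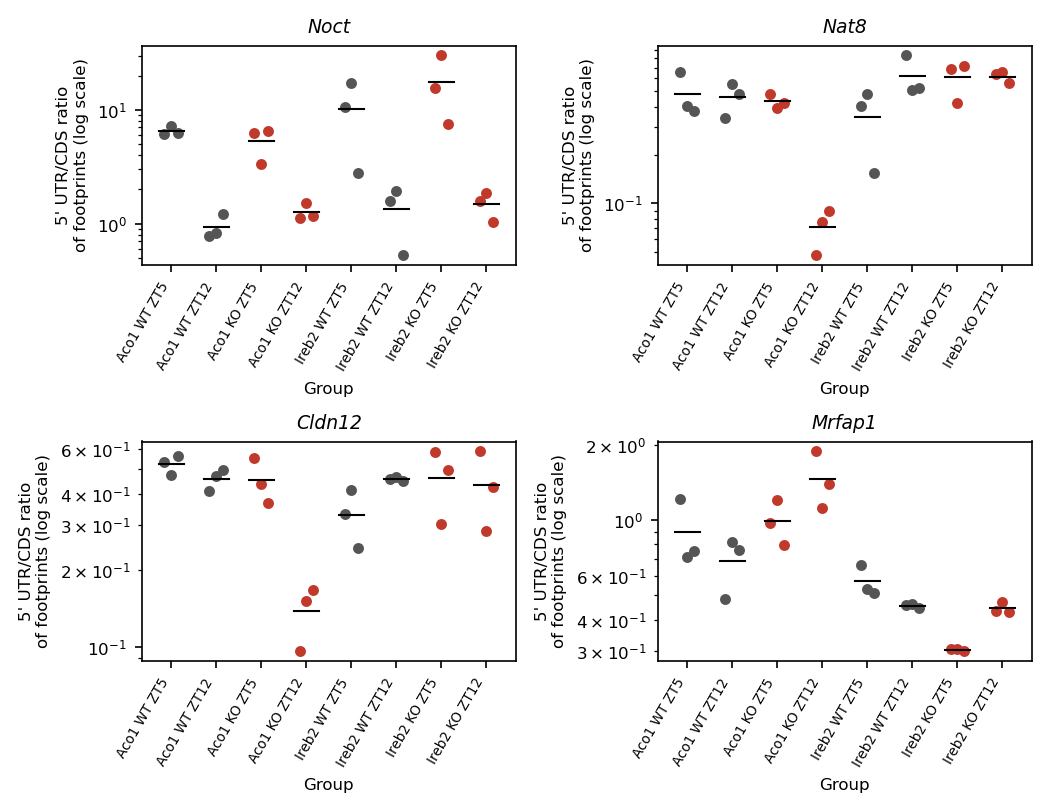
Footprint ratio of 5′ UTR to CDS in each liver for Noct, Nat8, Cldn12 and Mrfap1, by genotype and time (WT grey, KO red); each point is 1 liver, lines are group means and the vertical axis is on a log scale. Noct is lower at ZT12 in all 4 genotypes, while the lowest Nat8 and Cldn12 values are those of the 3 Aco1-/- ZT12 livers.

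Noct was the one member whose ratio was called different between the times in wild-type livers. In Aco1+/+ it was the only member called (0.0319% of all genes tested), and the ratio fell from 6.07, 7.17 and 6.22 at ZT5 to 0.773, 0.822 and 1.21 at ZT12 (log2 change −2.82 ± 0.38). In Aco1-/- livers it fell from 6.21, 3.37 and 6.51 to 1.13, 1.53 and 1.17 (−2.01 ± 0.37, adjusted p = 0.00075). In Ireb2-/- livers, where it was again the only member called (0.0319%), the change was from 15.5, 30.1 and 7.44 to 1.58, 1.87 and 1.03 (−3.36 ± 0.57, adjusted p = 0.0043). In Ireb2+/+ the values were 10.6, 17.3 and 2.79 at ZT5 and 1.59, 1.94 and 0.526 at ZT12 (−2.71 ± 0.55), and Noct was not called. The third of these ZT5 livers is the one with the pancreatic mRNAs, and without it the change was −3.51 ± 0.50 and Noct was called (adjusted p = 1.6e-05), as it was without ZT12 replicate 1 (0.017) or replicate 2 (0.0082). The times did not overlap in any of the 4 genotypes. In wild-type livers these values entered the rule and most of the CDS footprints counted for the rule came from ZT12, so there they are a description, and the tests are those in the knockouts. In Ireb2-/- the call was lost without ZT5 replicate 1 (adjusted p = 0.30), without ZT5 replicate 2 (0.30) and with 5′ UTR counts scaled by their own upper quartile (0.53).

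Set against the CDS total of each library, the Noct CDS footprints were higher at ZT12 than at ZT5 without overlap in all 4 genotypes, while the 5′ UTR footprints overlapped between the times in each. In Aco1+/+ livers there were 6.18, 7.28 and 9.39 CDS footprints per 1e6 at ZT5 and 59.3, 47.6 and 48.6 at ZT12, and 37.5, 52.2 and 58.4 in the 5′ UTR at ZT5 and 45.8, 39.1 and 58.8 at ZT12. In Ireb2-/- livers the CDS had 2.45, 3.02 and 9.42 at ZT5 and 35.6, 24.1 and 48.4 at ZT12, and the 5′ UTR 38.0, 90.9 and 70.2 and then 56.4, 45.0 and 50.1. Noct RNA in the CDS rose from 6.81, 6.53 and 3.49 to 32.0, 29.2 and 26.9 CPM in Aco1+/+ (2.35 ± 0.33), by 1.85 ± 0.30 in Aco1-/- and by 2.74 ± 0.47 in Ireb2-/- livers on the log2 scale. In Ireb2+/+ RNA was 2.90, 2.15 and 14.1 CPM at ZT5 and 19.8, 16.6 and 28.03 at ZT12 (1.88 ± 0.48, adjusted p = 0.065), and without replicate 3 at ZT5 the change was 3.01 ± 0.36 (adjusted p = 4.3e-06). The TE of the Noct CDS changed by 0.47, 0.23, 0.40 and 0.06 in Aco1+/+, Aco1-/-, Ireb2+/+ and Ireb2-/- and passed the test in none.

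Few members were called in TE between groups, with log2 changes of −2.80 to 1.77 over the members and comparisons. Of 8 comparisons over 10696 genes, 6 called 0 members by edgeR: Aco1-/- against Aco1+/+ at ZT5 (0.00935% of all genes called), the times in Aco1+/+ (0.0187%), Ireb2-/- against Ireb2+/+ at ZT5 (0.00935%) and ZT12 (0%), and the times in Ireb2+/+ (0.533%) and in Ireb2-/- (0.00935%). At an unadjusted p under 0.05 these had 5, 15, 11, 2, 12 and 7 members, beside 2.53, 7.46, 7.02, 3.58, 8.24 and 4.53% of all genes. In Aco1-/- livers at ZT12 against ZT5 the 1 member called was Psenen (0.112% of all genes tested were called lower and 0.0374% higher), whose log2 TE was 3.68, 2.68 and 4.17 at ZT5 and 0.50, 0.85 and 0.19 at ZT12 (−2.80 ± 0.55, adjusted p = 0.014). Its RNA level was only 0.423 to 5.31 CPM in these livers, and the call was lost without Aco1-/- ZT12 replicate 3, ZT5 replicate 1 or ZT5 replicate 3 and under DESeq2 (adjusted p = 0.051). In Aco1-/- against Aco1+/+ at ZT12 the 1 member called was Mrfap1, a protein that associates with the Morf4 family of nuclear factors (0.0467% of all genes were called lower and 0.0467% higher). Its log2 TE was −1.38, −0.84 and −0.15 in the knockout and 1.08, 1.48 and 0.80 in the wild-type livers, and its footprint ratio was 1.89, 1.11 and 1.39 against 0.485, 0.816 and 0.757. Both measures are without overlap. The wild-type CDS counts of Mrfap1 had entered the rule, the TE call was lost without Aco1+/+ ZT12 replicate 2, and DESeq2 gave it no adjusted p and so no call.

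RNA levels were compared between the same groups. No comparison of knockout with wild type called a member by edgeR. All genes gave 0% and 0.00935% for Aco1 and 0.00935% and 0.0187% for Ireb2 at ZT5 and ZT12. At an unadjusted p under 0.05 there were 4, 15, 10 and 3 members, beside 3.73, 7.66, 5.64 and 4.20% of all genes. From ZT5 to ZT12 RNA of 6 members rose (3.29% of all genes tested) and of 4 fell (3.76%) in Aco1+/+, 3 rose (2.42%) and 2 fell (2.73%) in Aco1-/-, 4 rose (1.10%) and 0 fell (1.21%) in Ireb2+/+, and 3 rose (1.32%) and 0 fell (1.45%) in Ireb2-/- livers. In Aco1-/- the count of 5 became 9 without ZT12 replicate 2, 2 without ZT12 replicate 3 and 3 without ZT5 replicate 1, in Ireb2+/+ it became 1 and 2 without ZT12 replicates 1 and 3, and in Aco1+/+ 4 without ZT5 replicate 2. Etfbkmt, a methyltransferase of the electron transfer flavoprotein, rose in all 4 genotypes: from 31.0, 29.2 and 20.6 to 59.8, 62.7 and 53.3 CPM in Aco1+/+ (1.10 ± 0.24), and from 16.2, 22.4 and 10.1 to 45.9, 46.3 and 42.2 CPM in Ireb2+/+ (1.49 ± 0.23, adjusted p = 0.00032). It rose by 1.57 ± 0.26 in Aco1-/- (adjusted p = 0.00050) and by 1.12 in Ireb2-/- livers (adjusted p = 0.0052). Gpat4, an enzyme of glycerolipid synthesis, was called in Aco1+/+ (0.62), Ireb2+/+ (0.64) and Ireb2-/- (0.71).

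The members whose RNA fell include Arsg, a lysosomal sulphatase, by 1.61 ± 0.29 on the log2 scale in Aco1+/+ (adjusted p = 0.00027) and by 0.99 in Aco1-/- livers (adjusted p = 0.044). Hfe2 RNA in Aco1+/+ was 40.6, 44.7 and 42.1 CPM at ZT5 and 21.9, 19.2 and 32.5 CPM at ZT12 (−0.80 ± 0.20, adjusted p = 0.0086). The log2 change of Hfe2 was −0.80 in Ireb2+/+ (adjusted p = 0.064), −0.79 in Ireb2-/- (adjusted p = 0.067) and −0.37 in Aco1-/- (adjusted p = 0.29), and 0 members passed the test of a difference in time change between knockout and wild type in RNA (0% of all genes in either line, with 10 and 7 members and 5.88 and 3.86% of all genes at an unadjusted p under 0.05). For Dbp, the clock-controlled member, RNA in Aco1+/+ differed by 1.64 ± 0.71 between the times and did not pass (adjusted p = 0.25).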

How the data were processed

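RPF and total RNA libraries of 24 livers were analysed. Per the methods, the authors trimmed reads with cutadapt 3.5, removed rRNA and tRNA reads with Bowtie2 and mapped the rest with STAR 2.70f to the mouse genome. The deposited values are raw counts per gene and region without a header. Columns were read from their values as 5′ UTR, CDS and 3′ UTR. The counting tool and its strand setting are not given in the sources used here. Runs of a library were summed.

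Ratios, TE and RNA were fitted with edgeR 4.0.16 (quasi-likelihood, robust, filterByExpr, upper-quartile scaling, R 4.3.3) over all genes of a line. The ratio model had the mouse, the region and region by group as terms, and that of RPF against RNA the library, the region and region by kind. Benjamini-Hochberg adjusted p under 0.05 was the threshold. Scripts were tested on simulated data. DESeq2 1.42.0, other scalings, no filter, a replicate block and each liver left out were alternatives. Members and lists were chosen with earlier results of these data known. Named are the 10 highest ratios, the limit of the ranking, list genes, extremes of TE and of RPF against RNA, and up to 3 called members per direction and comparison, besides genes grouped by role, which were chosen after their values were seen. Replicates are separate mice.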

Additional observations from a re-analysis of the deposited data

Results flagged for a closer look

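For 2 of the 150 mRNAs the interaction term of edgeR's quasi-likelihood fit passed the threshold for the change of the footprint ratio from ZT5 to ZT12 between the genotypes of the Aco1 line. For Nat8 the log2 change in Aco1-/- minus that in Aco1+/+ was −2.64 ± 0.52, and for Pias2 it was −3.31 ± 0.68. The Aco1+/+ ratios subtracted here are among those that chose the 150 mRNAs, so the values are a description and not an independent test. Each call was lost in 5 of the 12 fits that left out 1 liver, and that of Pias2 also without the filter on low counts. With 3 livers per group no single liver was tested for standing apart from its group.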

How the results depend on the processing

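Of the 150 mRNAs, 66 were in the top 150 when only the 6 Aco1+/+ livers were ranked, 71 with the 6 Ireb2+/+ livers and 67 with a minimum of 1000 CDS footprints, since fewer genes reach the minimum. With the minimum lowered to 250, an alternative chosen after seeing the data, the 6 Aco1+/+ livers gave 89.3% of the 150, the 6 Ireb2+/+ livers 88.0%, and the 6 wild-type livers at ZT5 and at ZT12 86.0 and 90.0%. None of the single-gene calls between groups changed sign in 1091 values under alternatives. Under DESeq2 85 calls were kept and 22 lost, with no adjusted p for 1, without the filter on low counts 71 and 37, with TMM scaling (TE and RNA) 21 and 3, and with 5′ UTR counts scaled by their own upper quartile (ratio) 34 and 50. Leaving out 1 liver lost 238 of 660. The cause was not tested. Counts of members called moved as follows. In the ratio, Aco1-/- against Aco1+/+ at ZT12 gave 20 without the filter (main 33), and ZT12 against ZT5 in Aco1-/- gave 25 without the filter and 14 with own scaling (main 47). Ireb2-/- against Ireb2+/+ at ZT5 gave 1 under each of these (main 0), Ireb2+/+ by time gave 1 under DESeq2 and 1 without the filter (main 0), and Ireb2-/- by time gave 2 without the filter and 0 with own scaling (main 1). In TE, DESeq2 called 0 in both comparisons in which edgeR called 1, and no filter gave 2 for Aco1-/- by time. RNA of Ireb2-/- by time gave 5 without the filter (main 3), and the interaction in the Aco1 line gave 1 without the filter (main 2). The Aco1-/- livers alone called 45 members higher in RPF than in RNA (main 69). Leaving out 1 liver at a time gave 63 to 69 higher and 35 to 40 lower in RPF. The ratio then gave 5 to 34 for Aco1-/- against Aco1+/+ at ZT12, 14 to 46 by time in Aco1-/-, 0 to 1 for Ireb2-/- against Ireb2+/+ at ZT5 and for Ireb2+/+ by time, and 0 to 2 for Ireb2-/- by time. TE gave 0 to 2 in both Aco1 comparisons with a call and 0 to 1 elsewhere. RNA gave 4 to 12 by time in Aco1+/+, 2 to 9 in Aco1-/-, 1 to 5 in Ireb2+/+, 2 to 4 in Ireb2-/- and 0 to 2 for Aco1-/- against Aco1+/+ at ZT12, and the interactions gave 0 to 8 (ratio) and 0 to 1 (TE) in the Aco1 line and 0 to 1 (ratio) in the Ireb2 line. Deviations of livers with the same replicate number had correlations of −0.22 to 0.18. With 3 livers per group, such values cannot decide whether the numbers pair the samples. With the replicate block, 96 calls were kept and 12 lost, RNA by time gave 8 members in Ireb2+/+ (main 4) and 5 in Ireb2-/- (main 3), the ratio by time gave 1 in Ireb2+/+ (main 0), and the ratio of Aco1-/- gave 27 against Aco1+/+ at ZT12 and 43 by time. Low 5′ UTR counts limit the precision of the ratio: Pias2 had only 5, 1 and 6 such footprints in the Aco1-/- ZT12 livers.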
